A study of Mus musculus with 9 samples.

Results

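The genes described here are Crym, Dio1, Dio2, Dio3 and Slc16a10, which encode proteins that bind, deiodinate or carry thyroid hormone. They are 5 of the 23361 genes in a table of mouse RNA-seq and were picked by symbol, with their levels in all 9 libraries already known. Their levels are therefore given as a description, with no test. RNA was sequenced from sorted skin cells labelled as melanocyte stem cells, the cells of the hair follicle that renew the pigment-producing melanocytes. The libraries fall into 3 groups of 3, called UVB, Active and Quiescent, and each library holds 21045070 to 35131778 fragments. All libraries carry the genotype label TBPT, whose letters the labels do not spell out, and all mice were 10 weeks old. The treatment label is the same for every library and names chemical depilation of the hair or ultraviolet B irradiation, so it does not say which libraries followed depilation. The labels do not say that replicates came from separate animals, and the p-values below therefore measure the spread between these libraries, which may be technical.

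Thyroid hormone circulates mainly as thyroxine, which has little activity until an outer-ring iodine is removed to give triiodothyronine. Dio2, and Dio1 in liver, kidney and thyroid, make that step, whereas Dio3 removes an inner-ring iodine and inactivates both hormones. The hormones enter cells through carriers such as Slc16a10, which also carries aromatic amino acids. Inside the cell triiodothyronine can be held by mu-crystallin, the product of Crym, before it reaches the nuclear receptors Thra and Thrb. Mu-crystallin is also a ketimine reductase of lysine breakdown. In skin the hormone is known to act on the hair cycle.

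On the mm10 assembly with GENCODE annotation, Crym lies at chr7:120186380-120202111 on the minus strand and has up to 8 exons. Dio1 lies at chr4:107291465-107307169 on the minus strand, with up to 5 exons. Dio2 lies at chr12:90724552-90738438 on the minus strand, with up to 2 exons, and Dio3 is a gene of 1 exon at chr12:110279068-110281097 on the plus strand. Slc16a10 lies at chr10:40033532-40142258 on the minus strand, with up to 6 exons. Values are for whole genes, and the sources used here do not give the strand setting of the counting. Dio3os, the transcript antisense to the Dio3 locus, ends before Dio3 begins and does not overlap it in this annotation. On the opposite strand Gm26512 overlaps Dio2 and Gm25613 overlaps Slc16a10, and neither is among the genes counted.

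The deiodinases are selenoproteins: a TGA codon, elsewhere a stop, is read as the selenocysteine of the active site. The coding sequence around that codon is the feature that the deiodinases share and the other genes lack, so it is shown with 10 codons on either side. The TGA read as selenocysteine is in capitals, the letters run 5′ to 3′ on the coding strand, and codons are counted from the start codon. The sequences are from the GENCODE transcripts on mm10. The capital TGA is codon 126 in Dio1 (chr4:107297700-107297702), codon 130 in Dio2 (chr12:90729823-90729825) and codon 170 in Dio3 (chr12:110279739-110279741).
Dio1: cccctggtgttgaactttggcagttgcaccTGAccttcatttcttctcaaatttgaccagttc
Dio2: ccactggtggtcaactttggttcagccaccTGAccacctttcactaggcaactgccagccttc
Dio3: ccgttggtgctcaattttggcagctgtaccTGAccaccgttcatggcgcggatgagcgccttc

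With the windows aligned on the TGA and no gaps, 30 of the 63 bases were the same in all of them. Dio2 and Dio3 shared 41 bases (65.1%), Dio1 and Dio3 shared 37 (58.7%), and Dio1 and Dio2 shared 36 (57.1%). Dio2 has a second in-frame TGA at codon 263 of 267 (chr12:90729424-90729426), near the end of its reading frame, as follows.
Dio2 second TGA: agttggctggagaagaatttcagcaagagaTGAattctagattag
No in-frame TGA precedes the stop codon in Crym, of 314 codons, or in Slc16a10, of 513 codons.

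The sorted cells differed between groups in marker genes of other skin cells, and this touches every comparison below. Levels here and below are CPM (counts of fragments relative to the library's TMM-scaled total) unless called FPKM, which is also per length of transcript and scaled by the authors. The summed level of 9 melanocyte lineage markers, none of which was at 0 throughout a group, was 883 to 1060 CPM in UVB, 7740 to 12600 CPM in Active and 74.3 to 122 CPM in Quiescent libraries. The sum of 8 dermal fibroblast markers, none at 0 throughout a group either, was 22000 to 34400 CPM in UVB, 4820 to 6140 CPM in Active and 336000 to 454000 CPM in Quiescent libraries. The Quiescent libraries are thus called by their label only, since fibroblast markers far exceeded melanocyte markers in them. Schwann cell markers (5 genes) summed to 716 to 943 CPM in UVB, 731 to 1080 CPM in Active and 39.0 to 62.8 CPM in Quiescent libraries. Endothelial markers (5 genes) summed to 111 to 217 CPM in UVB, 16.2 to 19.7 CPM in Active and 276 to 367 CPM in Quiescent libraries, and smooth muscle and pericyte markers (5 genes) to 108 to 246, 73.7 to 117 and 734 to 1020 CPM in the same groups. Myeloid markers (5 genes) summed to 425 to 953 CPM in UVB, 25.6 to 68.0 CPM in Active and 140 to 1480 CPM in Quiescent libraries, and T cell markers (3 genes) to 7.16 to 13.5, 1.14 to 1.75 and 0.0591 to 0.899 CPM. In UVB against Active, at the adjusted p of 0.05 used below, 8 of 9 melanocyte markers were called lower and 7 of 8 fibroblast markers higher. Endothelial (5 of 5), smooth muscle (3 of 5), myeloid (4 of 5) and T cell (3 of 3) markers were also called higher. Hair matrix (1 of 6) and Schwann cell (1 of 5) markers were called lower. Among all genes tested, 14.8% were called higher and 9.19% lower. Keratinocyte markers (7 genes) summed to 249 to 609 CPM in UVB, 719 to 1120 CPM in Active and 113 to 1900 CPM in Quiescent libraries, and hair matrix and inner root sheath markers (6 genes) to 1.51 to 82.4, 81.2 to 488 and 4.13 to 29.7 CPM. Adipocyte markers (4 genes) summed to 17.5 to 117 CPM in UVB, 11.8 to 15.1 CPM in Active and 89.4 to 121 CPM in Quiescent libraries, with 1 of them at 0 throughout the Active and 1 throughout the Quiescent group. The part of these cells in the differences below was not tested. The female transcript Xist had 23353 to 30356 fragments in the UVB libraries, 5 to 12 in the Active and 4 to 12 in the Quiescent libraries, and 4 Y-linked genes together had 0 to 2, 4106 to 5253 and 4155 to 5591 fragments in the same groups. UVB and the sex of the mice therefore cannot be told apart.

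Crym, the hormone-binding member, was high in UVB and Active libraries and near the counting limit in Quiescent libraries. It had 256, 253 and 122 CPM in the UVB libraries, 285, 324 and 286 CPM in the Active libraries, and 0.274, 0.477 and 0.354 CPM in the Quiescent libraries. Every UVB and Active library lay far above every Quiescent library, and UVB replicate 3 was the lowest of the 6. The Quiescent level rested on 7, 8 and 6 fragments, 21 in all, with an exact 95% Poisson interval of 13 to 32.1 that covers counting error only.

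Per length, Crym stood at 190 ± 71.2 FPKM in UVB, 271 ± 22.1 FPKM in Active and 0.335 ± 0.0908 FPKM in Quiescent libraries (SD, n = 3 each). By FPKM it ranked 263, 260 and 593 among genes in the UVB libraries and 260, 240 and 281 in the Active libraries. In the Quiescent libraries it ranked 14192, 13549 and 13453. It was thus among the more abundant transcripts of the UVB and Active libraries and among the scarcer ones detected in the Quiescent libraries.

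The mean CPM of Crym was 571-fold higher in UVB than in Quiescent libraries (log2 ratio 9.16, SD 0.66) and 810-fold higher in Active than in Quiescent libraries (log2 ratio 9.66, SD 0.41). With library totals alone the differences were 939-fold and 1360-fold. Between UVB and Active libraries the groups did not overlap, with the UVB mean 1.42-fold lower (log2 ratio -0.50, SD 0.53), and the difference was about as large as its spread. UVB and Active are both set against the same Quiescent libraries, so these ratios share their denominator. Among the 15078 genes that passed the filter on low counts, 80 had a ratio of UVB to Quiescent at least as high as that of Crym, itself included, and 84 had such a ratio of Active to Quiescent. Genes at 0 in the Quiescent libraries count among these. The place of Crym is itself loose, since its Quiescent mean rests on 21 fragments.

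Sox10, a transcription factor of the melanocyte and Schwann lineages, ran in the same order over the groups as Crym. It had 180 ± 57.0 FPKM in UVB, 225 ± 21.3 FPKM in Active and 0.829 ± 0.711 FPKM in Quiescent libraries (SD, n = 3 each). The ratio of Crym to Sox10 FPKM was 1.15, 1.04 and 0.933 in the UVB libraries, 1.23, 1.37 and 1.03 in the Active libraries, and 0.163, 0.515 and 2.86 in the Quiescent libraries. The ratio varied little in UVB and Active libraries and widely in Quiescent libraries, where both genes were scarce. In bulk RNA, fewer cells of a type and less RNA per cell cannot be told apart, and the part of the lineage markers in the Crym difference was not tested. Between UVB and Active libraries, neither Crym nor the summed melanocyte markers overlapped. The Crym means differed 1.42-fold, and the marker sums were 883 to 1060 CPM in UVB and 7740 to 12600 CPM in Active libraries. Dct, the most abundant of these markers in Active libraries, averaged 267 CPM in UVB and 5570 CPM in Active libraries. Of the 9 markers 8 were called lower in UVB against Active. The exception was Sox10, at 474 and 591 CPM, so the sum does not stand for every marker.

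**Figure D1:**
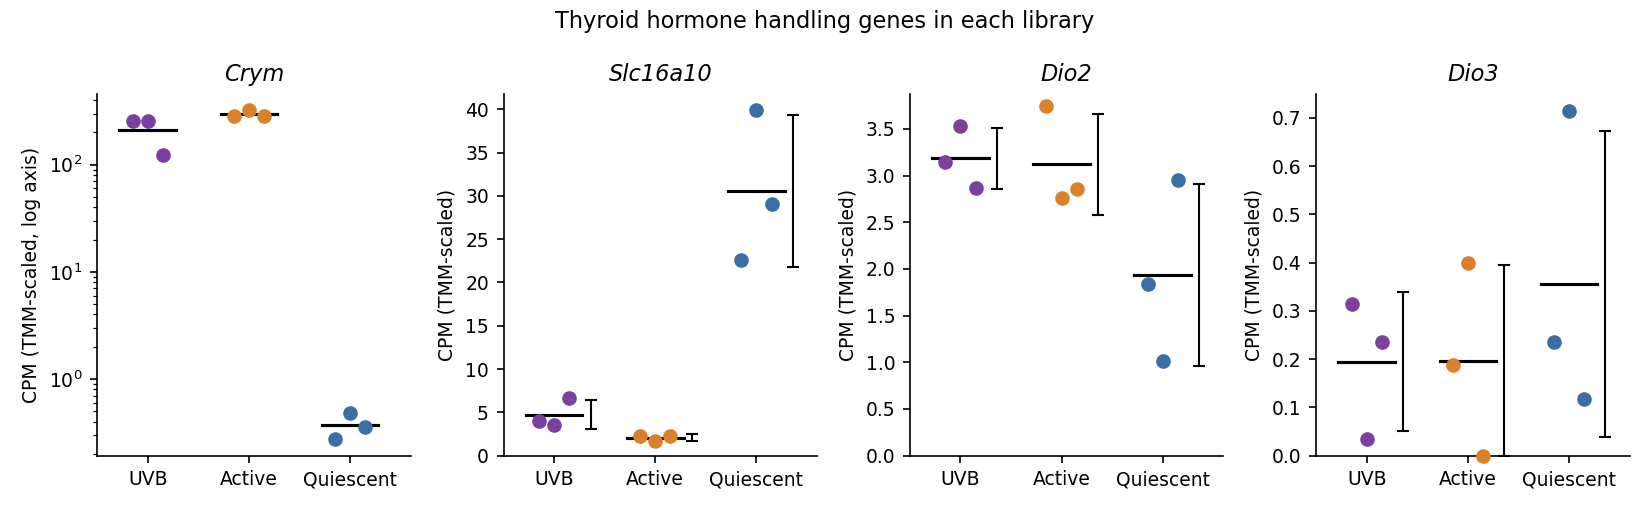
Level of Crym, Slc16a10, Dio2 and Dio3 in each library (CPM after TMM scaling, log axis for Crym only), with UVB, Active and Quiescent from left to right. Points are libraries, horizontal lines are group means and vertical bars, drawn in all panels but Crym, are the SD (n = 3), stopping at 0. Crym lies at 0.274 to 0.477 CPM in the Quiescent libraries and at 122 to 324 CPM in the others, whereas Slc16a10 is highest in the Quiescent libraries.

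The deiodinases were scarce throughout. Dio1 had no fragment in any of the 9 libraries. At 3 fragments over a group, the limit that a count of 0 allows is 0.0331 CPM in UVB, 0.0357 CPM in Active and 0.0506 CPM in Quiescent libraries, for counting error only.

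Dio2, which makes triiodothyronine inside cells, had 3.15, 3.53 and 2.87 CPM in the UVB libraries, 3.74, 2.76 and 2.86 CPM in the Active libraries, and 1.84, 1.01 and 2.95 CPM in the Quiescent libraries. The groups overlapped in every comparison, and Quiescent replicate 3 lay above the lowest UVB and Active libraries. These levels rested on 17 to 120 fragments a library. The mean was higher in UVB than in Quiescent libraries by a log2 ratio of 0.72 (SD 0.74) and higher in Active than in Quiescent libraries by 0.69 (SD 0.77), neither of them larger than its spread. Scaled by library totals alone, both ratios were 1.47. Between UVB and Active libraries the log2 ratio was 0.03 (SD 0.29).

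Dio3, which inactivates the hormone, had 0.315, 0.0342 and 0.236 CPM in the UVB libraries, 0.187, 0.399 and 0 CPM in the Active libraries, and 0.235, 0.715 and 0.118 CPM in the Quiescent libraries. In fragments, that was 10, 1 and 7 in UVB, 6, 11 and 0 in Active, and 6, 12 and 2 in Quiescent libraries. The groups overlapped, and the sums of 18, 17 and 20 fragments had exact 95% Poisson intervals of 10.7 to 28.4, 9.9 to 27.2 and 12.2 to 30.9 in UVB, Active and Quiescent libraries. The log2 ratio to Quiescent was -0.87 both in UVB (SD 1.67) and in Active (SD 1.95). Quiescent replicate 2 decided its sign, since without that library both ratios were 0.15, and with library totals alone they were -0.19 and -0.14. A difference in Dio3 was not detectable at this depth, and the gene did not pass the filter on low counts.

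Per length, Dio2 stood at 0.539 ± 0.0677 FPKM in UVB, 0.532 ± 0.0923 FPKM in Active and 0.332 ± 0.168 FPKM in Quiescent libraries (SD, n = 3 each). Dio3 stood at 0.110 ± 0.0816 FPKM in UVB, 0.113 ± 0.116 FPKM in Active and 0.205 ± 0.181 FPKM in Quiescent libraries (SD, n = 3 each). The ratio of Dio2 to Dio3 FPKM was 2.97, 30.6 and 3.61 in the UVB libraries. It was 5.94 and 2.05 in Active replicates 1 and 2, with Dio3 at 0 in Active replicate 3. It was 2.33, 0.421 and 7.42 in the Quiescent libraries. Dio2 thus exceeded Dio3 in all libraries but Quiescent replicate 2, on very few Dio3 fragments.

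Slc16a10, the transporter, ran opposite to Crym. It had 4.03, 3.53 and 6.65 CPM in the UVB libraries, 2.31, 1.67 and 2.29 CPM in the Active libraries, and 22.6, 39.9 and 29.1 CPM in the Quiescent libraries. No group overlapped another: Quiescent libraries were highest, UVB libraries intermediate and Active libraries lowest. The means were 4.74 ± 1.68, 2.09 ± 0.364 and 30.5 ± 8.71 CPM in UVB, Active and Quiescent libraries (SD, n = 3 each).

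Its mean was 6.44-fold lower in UVB than in Quiescent libraries (log2 ratio -2.69, SD 0.66) and 14.6-fold lower in Active than in Quiescent libraries (log2 ratio -3.87, SD 0.48). With library totals alone the differences were 3.92-fold and 8.74-fold. It was 2.27-fold higher in UVB than in Active libraries (log2 ratio 1.18, SD 0.57). Of the 15078 genes, 469 had a ratio of UVB to Quiescent at least as low, and 747 a ratio of Active to Quiescent at least as low. The fibroblast markers ran in the same order over the groups, and their part in the Slc16a10 difference was not tested.

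**Figure D2:**
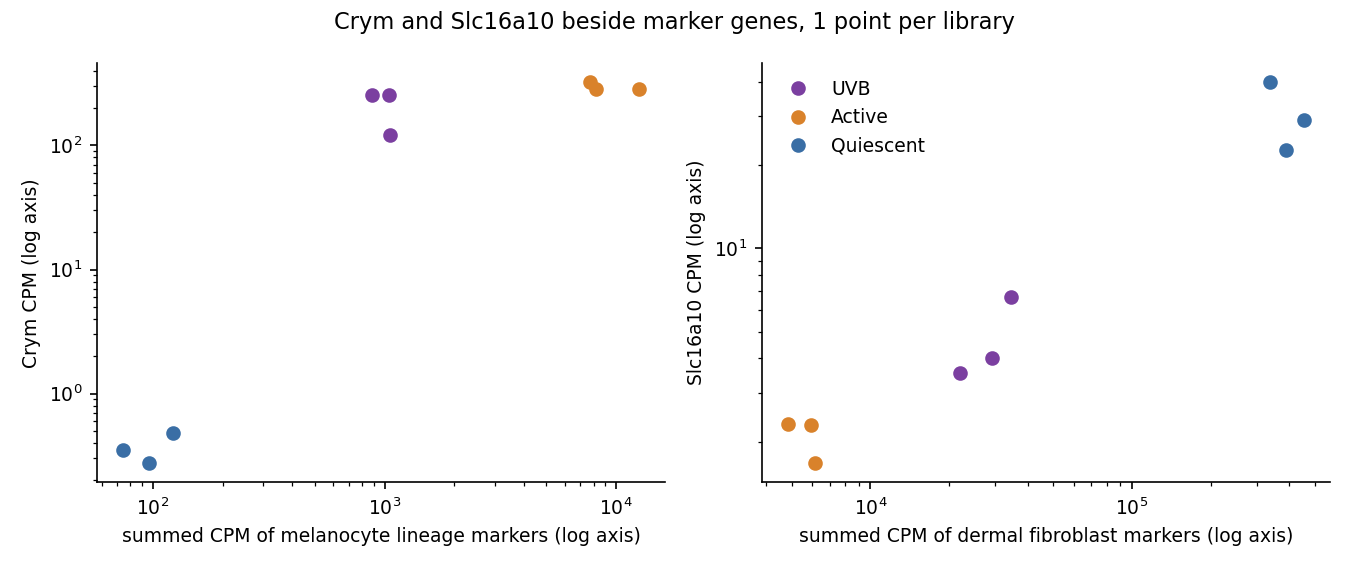
Left, Crym against the summed level of 9 melanocyte lineage markers; right, Slc16a10 against the summed level of 8 dermal fibroblast markers (CPM, log axes, 1 point per library, coloured by UVB, Active and Quiescent). In the left panel the Quiescent libraries lie at 74.3 to 122 CPM of melanocyte markers with Crym under 0.5 CPM. The UVB and Active libraries overlap neither in Crym (122 to 256 and 285 to 324 CPM) nor in marker sum. In the right panel the Quiescent libraries lie at 336000 to 454000 CPM of fibroblast markers, with the highest Slc16a10.

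Of the 5 genes, 3 passed the filter on low counts (Crym, Dio2 and Slc16a10). In each comparison 1 was higher without overlap, 1 was lower without overlap, 2 overlapped and Dio1 was at 0. Among all genes tested, 30.2% were higher and 27.4% lower without overlap in UVB against Quiescent, 33.5% and 32.7% in Active against Quiescent, and 25.0% and 21.7% in UVB against Active. In either direction this was 57.6%, 66.2% and 46.7% of genes in those comparisons. Groups that do not overlap were thus common in this table, and nothing is read from the count for genes chosen on these levels.

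The other genes of the pathway were taken from lists by known function and were tested with edgeR's quasi-likelihood test over all 15078 genes, with a call at an adjusted p (Benjamini-Hochberg) of 0.05. Of 78 genes in 9 lists, 58 were tested. In UVB against Quiescent 10 rose, 17 fell and 31 did not pass, so 46.6% were called, against 49.0% of all genes (25.8% higher, 23.2% lower). In Active against Quiescent 10 rose, 26 fell and 22 did not pass, so 62.1% were called, against 58.3% of all genes (29.1% higher, 29.2% lower). In UVB against Active 13 rose, 4 fell and 41 did not pass, so 29.3% were called, against 24.0% of all genes (14.8% higher, 9.19% lower). The counts given for each list below are to be read beside these shares of all genes.

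The median log2 fold change over the 58 genes was -0.10, -0.25 and 0.19 in those comparisons, beside 0.02, 0.01 and 0.01 over all genes. Against Quiescent the balance of rises and falls rests on the scaling. The direction turned for 5 of 27 calls in UVB against Quiescent and 4 of 36 in Active against Quiescent, all with library totals. In UVB against Active it turned for 0 of 17. With library totals alone, 28 pathway genes rose and 8 fell in UVB against Quiescent, 30 rose and 16 fell in Active against Quiescent, and 12 rose and 4 fell in UVB against Active. Of the calls, 13 of 27, 22 of 36 and 7 of 17 held under every alternative in those comparisons. The count of 17 called in UVB against Active was 9 without Active replicate 1, 8 without Active replicate 2 and 9 without UVB replicate 1.

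**Figure D3:**
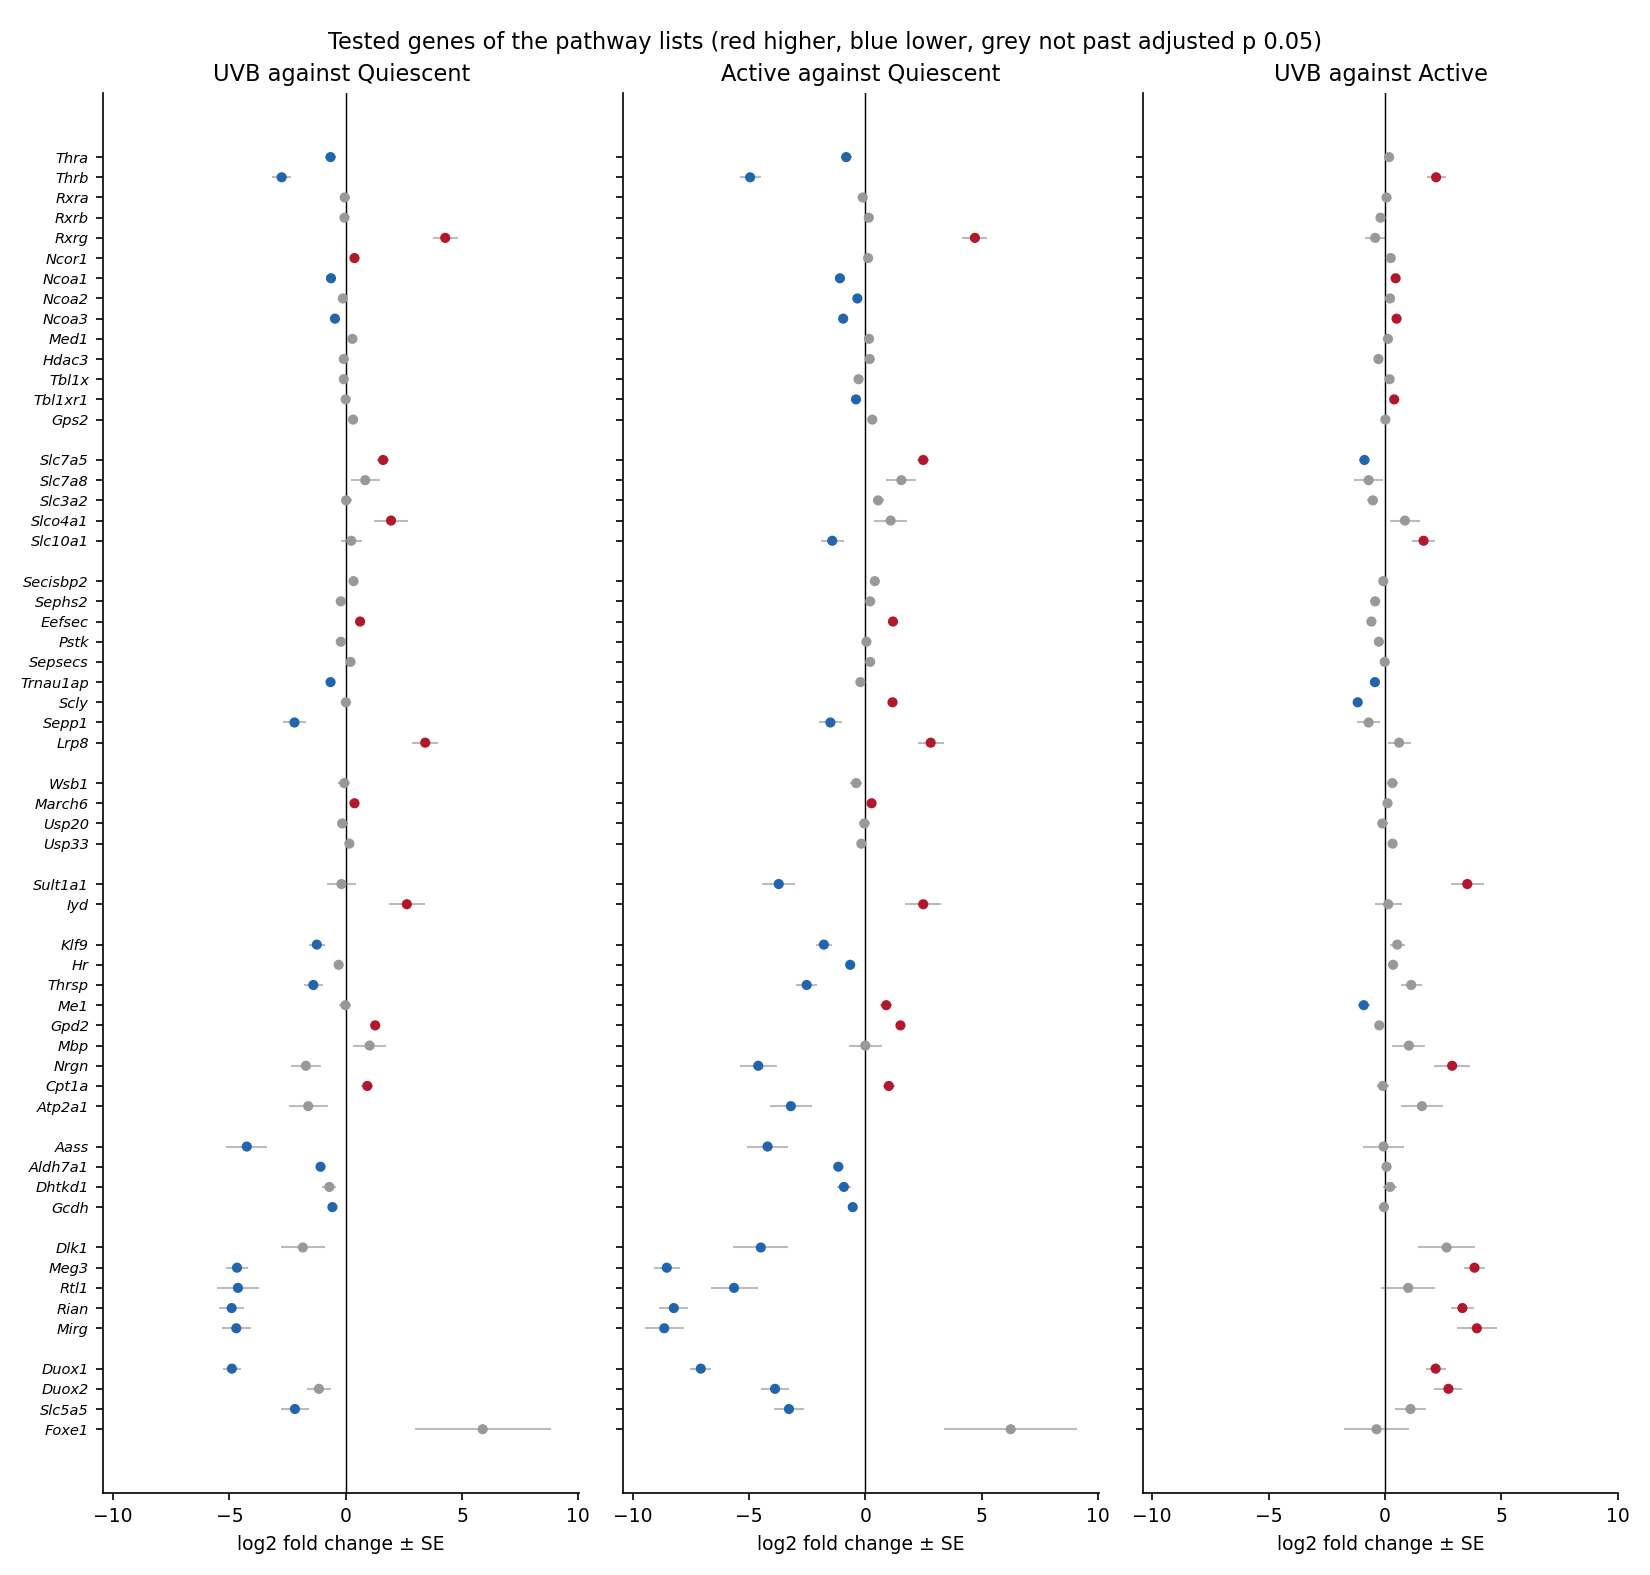
Log2 fold change ± SE of 56 of the 58 tested pathway genes, with UVB against Quiescent, Active against Quiescent and UVB against Active from left to right and gaps between the lists. Red genes were higher and blue genes lower at an adjusted p of 0.05, and grey genes did not pass. Meg3, Rian and Mirg lie far below 0 against Quiescent and above 0 in UVB against Active, while many other genes lie near 0. Foxe1, at 0 in the Quiescent libraries, has a fitted fold change with no meaning as a size. With library totals alone the direction turned for Thra, Ncoa1, Ncoa3, Trnau1ap and Gcdh in UVB against Quiescent and for Ncoa2, Tbl1xr1, Hr and Gcdh in Active against Quiescent.

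All 15 genes for receptors and coregulators were tested: 2 rose and 4 fell in UVB against Quiescent, 1 rose and 6 fell in Active against Quiescent, and 5 rose in UVB against Active. Medians were -0.05, -0.28 and 0.20. Thrb, the beta receptor, had 5.51, 2.16 and 7.76 CPM in UVB, 1.28, 1.2 and 0.858 CPM in Active and 36.2, 33.3 and 34.5 CPM in Quiescent libraries. Its groups did not overlap. It fell in UVB against Quiescent (log2 fold change -2.75 ± 0.40 SE, adjusted p = 0.000614) and in Active against Quiescent (-4.95 ± 0.45, adjusted p = 3.16e-05), and rose in UVB against Active (2.2 ± 0.41, adjusted p = 0.00779).

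Thra, the alpha receptor, averaged 64.0 ± 17.6 CPM in UVB, 56.5 ± 14.3 CPM in Active and 100 ± 12.1 CPM in Quiescent libraries (SD, n = 3 each). Thra is named outside the naming rule, after its values were seen. Its fall in UVB (-0.65 ± 0.23, adjusted p = 0.0467) and in Active (-0.82 ± 0.23, adjusted p = 0.0145) did not hold throughout (adjusted p up to 0.787 and 0.754). The UVB call ended without Active replicate 1 or 2, UVB replicate 1 or 2 or any Quiescent library, the Active call without Active replicate 1 or 2, and both with library totals, where the direction in UVB turned. Per length Thra exceeded Thrb in every group, at 29.6 against 0.835 FPKM in UVB, 26.4 against 0.184 FPKM in Active and 47.1 against 5.75 FPKM in Quiescent libraries. The ratio of Crym to Thra FPKM was 7.55, 10.7 and 2.94 in UVB, 12.1, 12.3 and 7.63 in Active and 0.00466, 0.0101 and 0.00723 in Quiescent libraries. Crym thus exceeded Thra in every UVB and Active library and lay far below it in every Quiescent library.

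Rxrg, a retinoid X receptor that pairs with thyroid hormone receptors, moved the other way. It averaged 75.7 ± 15.7 CPM in UVB, 102 ± 17.1 CPM in Active and 3.81 ± 2.61 CPM in Quiescent libraries (SD, n = 3 each). It rose in UVB against Quiescent (4.28 ± 0.53, adjusted p = 0.000274) and in Active against Quiescent (4.71 ± 0.54, adjusted p = 0.000102). The coactivator Ncoa1 fell in both (-0.63 ± 0.13, adjusted p = 0.00352; -1.09 ± 0.13, adjusted p = 0.000125), but with library totals the UVB call was lost (adjusted p = 0.534) and its direction turned. Ncoa3, another coactivator, fell by 0.46 and by 0.95 on the log2 scale (adjusted p = 0.0158 and 0.000258), and with library totals neither call held and the direction in UVB turned. In UVB against Active, Ncoa3 (0.50) and Ncoa1 (0.46) rose with adjusted p of 0.0244 and 0.0324. Both calls were lost without Active replicate 1, Active replicate 2 or UVB replicate 1 (adjusted p over all alternatives up to 0.0986 and 0.12), that of Ncoa3 also without Active replicate 3 and that of Ncoa1 without UVB replicate 3.

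**Figure D4:**
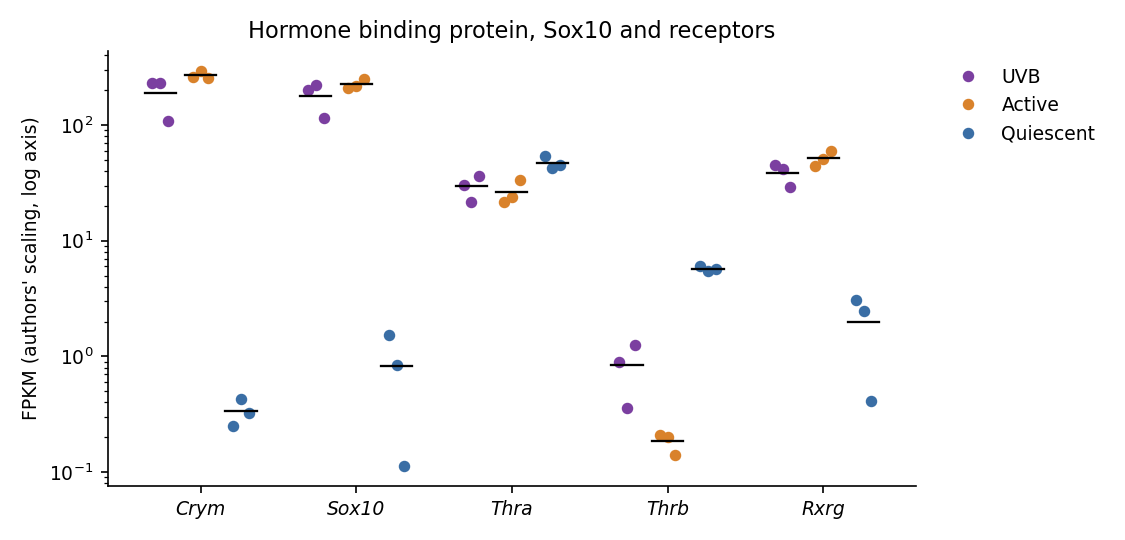
FPKM of Crym, Sox10 and the receptor genes Thra, Thrb and Rxrg in each library on a log axis, with UVB, Active and Quiescent from left to right, points for libraries and lines at the group means. Crym, Sox10 and Rxrg are lowest in the Quiescent libraries, while Thrb is highest there (5.47 to 6.03 FPKM).

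Of 10 other transporter genes, 6 were tested. In UVB against Quiescent 2 rose, in Active against Quiescent 1 rose and 1 fell, and in UVB against Active 1 rose and 1 fell, with medians of 0.54, 0.82 and -0.40. Slc7a5, the light chain of the L-type amino acid transporter that also carries thyroid hormone, averaged 54.5 ± 11.9 CPM in UVB, 100 ± 30.8 CPM in Active and 17.9 ± 2.85 CPM in Quiescent libraries (SD, n = 3 each). It rose in UVB against Quiescent (1.61 ± 0.25, adjusted p = 0.000897) and in Active against Quiescent (2.49 ± 0.26, adjusted p = 5.94e-05). It fell in UVB against Active (-0.88 ± 0.24, adjusted p = 0.031), a call that ended without Active replicate 1 or any UVB library (adjusted p from 0.00602 to 0.0977 over all alternatives). Slc10a1, a bile acid carrier of liver, fell in Active against Quiescent by 1.42 and rose in UVB against Active by 1.66 on the log2 scale (adjusted p = 0.0334 and 0.0365). Slco4a1, an organic anion carrier, rose by 1.95 in UVB against Quiescent (adjusted p = 0.0491). The Slc10a1 calls ended without any 1 of the Active libraries or UVB replicate 1, and that of Active against Quiescent also without Quiescent replicate 1 or 3 and that of UVB against Active without UVB replicate 3 (adjusted p up to 0.234 and 0.136). The Slco4a1 call ended without any library but UVB replicate 2 or Quiescent replicate 2 (adjusted p up to 0.156).

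**Figure D5:**
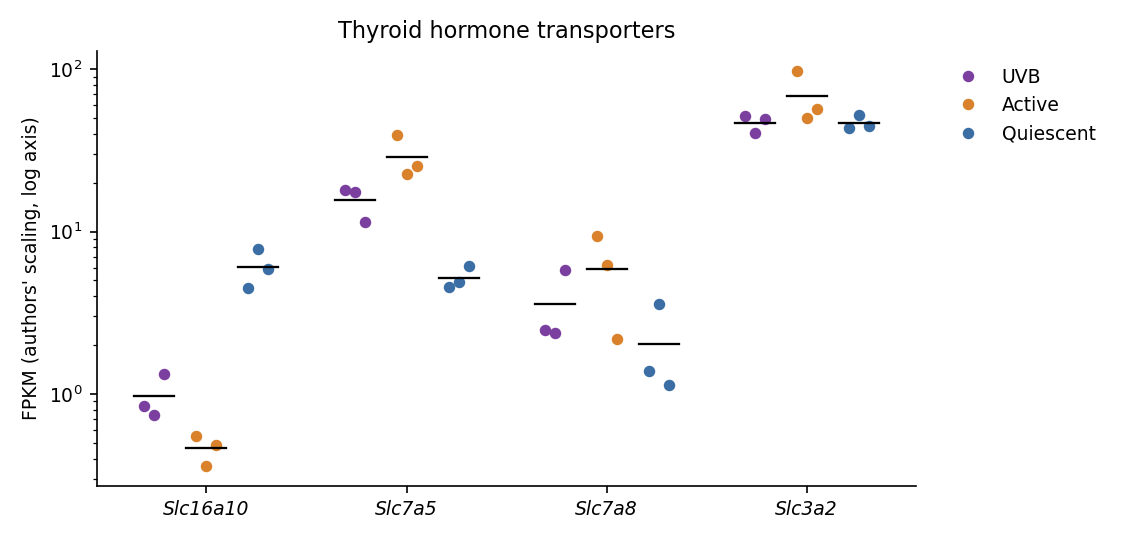
FPKM of Slc16a10 and 3 other thyroid hormone transporter genes (Slc7a5, its partner Slc3a2 and the related light chain Slc7a8) in each library on a log axis, with UVB, Active and Quiescent from left to right, points for libraries and lines at the group means. Slc16a10 is lowest in Active and highest in Quiescent libraries, and Slc7a5 is the reverse.

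Deiodinases need selenium, and 9 of 10 genes for selenoprotein synthesis and selenium supply were tested. In UVB against Quiescent 2 rose and 2 fell, in Active against Quiescent 3 rose and 1 fell, and in UVB against Active 2 fell, with medians of 0.01, 0.21 and -0.42. Scly, which frees selenium from selenocysteine, had 28.0, 30.5 and 23.1 CPM in UVB, 68.6, 60.1 and 54.6 CPM in Active and 29.4, 27.7 and 24.1 CPM in Quiescent libraries. It was higher in every Active library than in any other, rising in Active against Quiescent (1.17 ± 0.14, adjusted p = 0.000151) and falling in UVB against Active (-1.17 ± 0.14, adjusted p = 0.00142).

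Lrp8, the receptor that takes up selenoprotein P, rose in UVB against Quiescent (3.42 ± 0.56, adjusted p = 0.00126) and in Active against Quiescent (2.81 ± 0.56, adjusted p = 0.0023). Eefsec, the elongation factor for selenocysteine, rose in Active against Quiescent (1.19 ± 0.19, adjusted p = 0.000681). Its rise in UVB against Quiescent (0.62 ± 0.19, adjusted p = 0.0241) was lost without UVB replicate 1 or 2, with adjusted p up to 0.0769. Sepp1, selenoprotein P itself, averaged 450 ± 366 CPM in UVB, 732 ± 71.4 CPM in Active and 2070 ± 561 CPM in Quiescent libraries (SD, n = 3 each). It fell in UVB against Quiescent (-2.20 ± 0.51, adjusted p = 0.00675) and in Active against Quiescent (-1.50 ± 0.50, adjusted p = 0.0279), the second call lost with library totals and without any 1 of the Active libraries or Quiescent replicate 2 or 3 (adjusted p up to 0.194). Without UVB replicate 3, the highest of the UVB libraries, the log2 fold change in UVB against Quiescent was -3.11. Trnau1ap, which binds the selenocysteine transfer RNA, fell in UVB against Quiescent by 0.65 and in UVB against Active by 0.43 on the log2 scale (adjusted p = 0.00391 and 0.0449). With library totals alone its direction in UVB against Quiescent turned and the call ended (adjusted p = 0.611), and the call in UVB against Active ended without any 1 of the Active libraries, UVB replicate 1 or 2 or Quiescent replicate 1 (adjusted p up to 0.131).

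The Dio2 protein is destroyed through ubiquitin, and all 4 genes for that control were tested. Only March6, a ubiquitin ligase gene, passed, rising by 0.38 in UVB against Quiescent and by 0.27 in Active against Quiescent (adjusted p = 0.0139 and 0.0471). The Active call ended with DESeq2 and without any library but Active replicate 2 or UVB replicate 2 (adjusted p up to 0.148). Of 5 genes for plasma carriers and hormone disposal, 2 were tested. Sult1a1, a sulfotransferase, averaged 16.9 CPM in UVB, 1.45 CPM in Active and 19.2 CPM in Quiescent libraries. It fell in Active against Quiescent (-3.72 ± 0.71, adjusted p = 0.00187) and rose in UVB against Active (3.54 ± 0.70, adjusted p = 0.00956). Without UVB replicate 3 the log2 fold change in UVB against Active was 2.75. Iyd, which recycles iodide, was under 0.5 CPM in every library and rose in UVB against Quiescent (adjusted p = 0.0203) and in Active against Quiescent (adjusted p = 0.0221), calls lost without UVB replicate 1 or 2 in UVB and without Active replicate 3 or Quiescent replicate 2 in Active (adjusted p up to 0.0688 and 0.0619).

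Of 9 genes that respond to thyroid hormone in other tissues, 2 rose and 2 fell in UVB against Quiescent, 3 rose and 5 fell in Active against Quiescent, and 1 rose and 1 fell in UVB against Active. Medians were -0.30, -0.65 and 0.53. Gpd2, the mitochondrial glycerol phosphate dehydrogenase, had 43.9, 45.4 and 38.7 CPM in UVB, 52.0, 49.4 and 49.2 CPM in Active and 17.4, 16.0 and 19.5 CPM in Quiescent libraries. It rose in UVB against Quiescent (1.27 ± 0.11, adjusted p = 5.43e-05) and in Active against Quiescent (1.51 ± 0.11, adjusted p = 1.34e-05). Klf9, a transcription factor with a thyroid hormone response element, averaged 70.4 ± 18.6 CPM in UVB, 48.7 ± 19.7 CPM in Active and 167 ± 44.4 CPM in Quiescent libraries (SD, n = 3 each). It fell in Active against Quiescent (-1.78 ± 0.34, adjusted p = 0.00202). Its fall in UVB against Quiescent (-1.24 ± 0.34, adjusted p = 0.0145) was lost without UVB replicate 2 and with library totals (adjusted p = 0.0529 and 0.182).

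Thrsp, a lipogenic gene of the liver, and Nrgn, a calmodulin binder of neurons, fell in Active against Quiescent by 2.52 and 4.60 on the log2 scale (adjusted p = 0.0013 and 0.00108), at levels below 5 CPM. Without Active replicate 1 the Nrgn value was -5.55. Cpt1a, the carnitine transferase of fatty acid oxidation, rose in UVB against Quiescent by 0.93 (adjusted p = 0.0149), a call lost without Quiescent replicate 1 (adjusted p = 0.052). Genes known to respond to the hormone thus moved in both directions against Quiescent, as genes at large did. Of the 9 genes, 44.4% were called in UVB and 88.9% in Active against Quiescent, beside 49.0% and 58.3% of all genes.

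Mu-crystallin acts in lysine breakdown, and 4 of 6 genes for lysine and pipecolate catabolism were tested. In UVB against Quiescent 3 fell and in Active against Quiescent 4 fell, with medians of -0.89 and -1.04. In UVB against Active the median was 0.02. Aass, the first enzyme of the saccharopine route, averaged 0.309 CPM in UVB, 0.309 CPM in Active and 5.97 CPM in Quiescent libraries. It fell in UVB against Quiescent (-4.25 ± 0.89, adjusted p = 0.00427) and in Active against Quiescent (-4.20 ± 0.89, adjusted p = 0.00333). Without Active replicate 1 the second value was -6.57. Aldh7a1, which works downstream in the same breakdown, fell by 1.08 and 1.16 on the log2 scale (adjusted p = 0.00118 and 0.000547), calls that were lost with library totals (adjusted p up to 0.123 and 0.0828). Gcdh, which acts later in the same route, fell by 0.57 in UVB and by 0.54 in Active on the log2 scale against Quiescent (adjusted p = 0.00672 and 0.00708), but with library totals both calls ended (adjusted p = 0.439 and 0.261) and its direction turned.

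Dio3 lies at the end of an imprinted cluster, and 5 of its 6 listed neighbours were tested. In UVB against Quiescent 4 fell, in Active against Quiescent 5 fell, and in UVB against Active 3 rose, with medians of -4.67, -8.23 and 3.33. Among all genes 23.2% and 29.2% fell against Quiescent in UVB and Active, and 14.8% rose in UVB against Active. Meg3, a long noncoding RNA of the maternal chromosome, had 32.1, 26.3 and 65.0 CPM in UVB, 3.18, 3.12 and 2.21 CPM in Active and 859, 663 and 1630 CPM in Quiescent libraries. It fell in UVB against Quiescent (-4.67 ± 0.47, adjusted p = 9.93e-05) and in Active against Quiescent (-8.53 ± 0.56, adjusted p = 8.53e-06), and rose in UVB against Active (3.85 ± 0.47, adjusted p = 0.00137). Rian, another noncoding RNA there, averaged 31.9 ± 18.3 CPM in UVB, 3.16 ± 1.11 CPM in Active and 952 ± 442 CPM in Quiescent libraries (SD, n = 3 each). Mirg, a microRNA host gene of the cluster, fell in UVB against Quiescent (-4.7 ± 0.63, adjusted p = 0.000411), in Active against Quiescent (-8.64 ± 0.84, adjusted p = 4.33e-05) and rose in UVB against Active (3.95 ± 0.86, adjusted p = 0.0137). It had 5 fragments in the Active libraries, all in replicate 2, without which the last 2 values were -12.37 and 7.68. Rtl1, a retrotransposon-derived gene, had log2 fold changes against Quiescent of -4.63 in UVB and -5.64 in Active (adjusted p = 0.00333 and 0.00137), on 9 and 4 fragments in UVB and Active libraries. Without Quiescent replicate 3 these values were -3.88 and -4.88, and without UVB replicate 3 that of UVB was -6.11. Meg3, Rian and Mirg, the neighbours called in UVB against Active, thus ran in the order of Slc16a10. Dlk1 did not pass in UVB against Quiescent (adjusted p = 0.136) or in UVB against Active (adjusted p = 0.147), nor did Rtl1 in UVB against Active (adjusted p = 0.568). Dio3 itself, at 17 to 20 fragments a group, showed no detectable difference. Dio3os had 2, 5 and 14 fragments in UVB, Active and Quiescent libraries.

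Of 13 genes for the thyroid axis and hormone synthesis, 4 were tested, and Trhr and Cga were at 0 in every library. In UVB against Quiescent 2 fell, in Active against Quiescent 3 fell and in UVB against Active 2 rose, with medians of -1.66, -3.58 and 1.64. Among all genes 23.2% and 29.2% fell against Quiescent in UVB and Active, and 14.8% rose in UVB against Active. Duox1, a peroxide-making oxidase also found in epithelia, had 1.23, 0.856 and 2.33 CPM in UVB, 0.374, 0.254 and 0.327 CPM in Active and 42.7, 32.2 and 56.2 CPM in Quiescent libraries. It fell in UVB against Quiescent (-4.89 ± 0.39, adjusted p = 3.6e-05) and in Active against Quiescent (-7.07 ± 0.45, adjusted p = 7.26e-06), and rose in UVB against Active (2.18 ± 0.43, adjusted p = 0.00923). Slc5a5, the iodide symporter, was at most 3.13 CPM in any library.

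The genes whose profile over the 9 libraries was nearest to that of each tested gene were sought among 12198 genes, by the root mean square difference of centred log2 levels, and are given as a description. Nearest to Crym were Cntn6 (0.28), Foxd3 (0.36), Ptprz1 (0.38) and Slc35f1 (0.39). Cntn6 was at 0 in the Quiescent libraries, where Crym also lay below the 0.5 CPM added before taking logs. Foxd3, a neural crest transcription factor, averaged 171 ± 66.2 CPM in UVB, 219 ± 96.0 CPM in Active and 0.177 ± 0.102 CPM in Quiescent libraries (SD, n = 3 each). Nearest to Dio2 were Idi1 (0.13), Hmgcs1 (0.14), Cirh1a (0.17) and Ap3m1 (0.17), of which Idi1 and Hmgcs1 encode enzymes of sterol synthesis. Idi1 averaged 62.2 ± 7.66 CPM in UVB, 72.0 ± 10.9 CPM in Active and 41.3 ± 17.7 CPM in Quiescent libraries (SD, n = 3 each). Nearest to Slc16a10 were Spock1 (0.24), Dmrt2 (0.26), Rin2 (0.26) and Tgfbi (0.27). Spock1 averaged 0.106 CPM in Active and 7.52 CPM in Quiescent libraries, and Dmrt2 0.0344 and 6.91 CPM. Their Active levels lie below the 0.5 CPM added before taking logs, so their nearness rests partly on that constant. Tgfbi, an extracellular matrix protein, averaged 345 ± 116 CPM in UVB, 166 ± 16.5 CPM in Active and 2610 ± 543 CPM in Quiescent libraries (SD, n = 3 each).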

How the data were processed

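RNA from sorted cells was extracted with Trizol LS and made into stranded polyA libraries, per the labels' protocols. Reads were trimmed with cutadapt 1.8, aligned to mm10 with TopHat2 2.0.13 and summarised with Cuffdiff 2.2.1, per the submitters' processing notes. No source used here names the annotation. The authors deposited an estimated count of fragments and an FPKM per gene and library; 1.08% of the estimated counts were not whole and were rounded. In 7 genes the authors' table marks 18 values as failed, none of them in the 5 genes.

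R 4.3.3 with edgeR 4.0.16 (TMM scaling, filterByExpr, quasi-likelihood F test, two-sided, Benjamini-Hochberg over all genes, threshold 0.05) was fitted to all 9 libraries, with DESeq2 1.42.0 as an alternative. TMM scaling gave factors of 1.163 to 1.225 for UVB and Active libraries, against 0.66 to 0.748 for Quiescent ones. The filter kept 15078 of 23361 genes. The replicate coefficient of variation was 0.28. Tested on simulated data, 4-fold changes were recovered at 95.5% in UVB against Quiescent (15010 genes), 93.9% in Active against Quiescent (15017 genes) and 97.0% in UVB against Active (14960 genes); for 2-fold changes the shares were 20.9%, 14.9% and 16.4%, and for 1.5-fold changes 1.5%, 1.5% and 0%. The simulation changed only 66 or 67 genes per fold and gave every gene the same spread between replicates. In these data 24.0% to 58.3% of genes were called, so the adjusted p is less strict here. The recovered shares therefore do not give the recovery of such changes in these data. Within groups, replicate libraries differed by more than sampling noise (chi-square per degree of freedom 24.5 to 113.6).

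For the 5 genes, the SD of a log2 ratio combines the spread of both groups. The 5 genes and the lists were chosen with earlier results of these data known. From each list and comparison up to 4 called genes of smallest adjusted p are eligible to be named, and the genes nearest in profile were sought among those with an edgeR average log2 CPM (aveLogCPM, close to the log of the mean over libraries) of at least 1, comparing log2(CPM + 0.5). Thra, Sox10, Dct, Dlk1, Dio3os, Hr, Ncoa2, Tbl1xr1, Trhr, Cga and Foxe1 are named outside this rule, after their values were seen. Slc7a8 and Slc3a2 are drawn likewise. Some listed genes are counted but not reported here by name. Selenop was matched as Sepp1. Alternatives were other scalings, DESeq2, no filter, a replicate block, fits of 2 groups and leaving out each library.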

Additional observations from a re-analysis of the deposited data

How the results depend on the processing

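For Crym, Dio2, Dio3 and Slc16a10, 102 of 108 values under other scalings, FPKM or with 1 library left out moved by less than 1 SD. That SD is the spread between libraries, and leaving out 1 of 3 libraries can hardly move a mean so far. The count is therefore no test of how firm the ratios are. Within that SD the sign of Dio3 against Quiescent turned without Quiescent replicate 2 (0.15 in both comparisons), and in UVB against Active the signs of Dio2 (-0.05 to 0.18 with 1 library left out) and Dio3 (-0.59 to 1.06) were not fixed. The other 6 were the log2 ratios with library totals alone: in UVB against Quiescent 9.87 for Crym, 1.47 for Dio2 and -1.97 for Slc16a10, and in Active against Quiescent 10.41, 1.47 and -3.13 for the same genes. Library totals moved the median of all genes to 0.742 in UVB against Quiescent and 0.757 in Active against Quiescent, against 0.021 and 0.007 with TMM, so the share of higher calls moved too: 3895 higher and 3498 lower genes became 8746 and 1246 in UVB against Quiescent, and 4390 and 4396 became 8651 and 2206 in Active against Quiescent. In UVB against Active 2226 and 1386 became 2147 and 1534. With 1 library left out, genes called ranged from 5901 to 7492 in UVB against Quiescent, 7522 to 8938 in Active against Quiescent and 1452 to 4226 in UVB against Active (3612 with all), and pathway genes from 20 to 29, 29 to 38 and 8 to 20. Genes called in UVB against Active were 1806 without Active replicate 1, 1452 without Active replicate 2 and 1938 without UVB replicate 1. The cause was not tested. With DESeq2 the counts were 7934, 9153 and 4642. Same-numbered libraries deviated together little (correlations from -0.17 to 0.23). The labels do not say whether equal numbers share an animal or day, and these correlations cannot settle it. With a replicate block, 6809, 8223 and 2830 genes and 25, 33 and 12 pathway genes were called in UVB against Quiescent, Active against Quiescent and UVB against Active. Among the named genes, Iyd in either comparison against Quiescent and Slco4a1 in UVB against Quiescent were not called with the block. Nor were March6 and Ncoa2 in Active against Quiescent, or Slc7a5, Ncoa3, Trnau1ap and Tbl1xr1 in UVB against Active. Depth limits Dio1 and Dio3, whose counts were at most 12 fragments a library.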
